A study of Mus musculus with 6 samples.

Results

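G protein-coupled receptor genes that tune insulin secretion, 10 in number, were examined for peaks of the transcription factor MafA and of the histone mark H3K4me3: Glp1r, Gipr, Gcgr, Gpr119, Ffar1, Chrm3, Casr, Adra2a, Sstr3 and Galr1. They were taken from a list of receptors that raise or restrain insulin secretion, and are 10 of the 21900 protein-coding genes placed on the peak lists' chromosomes. Every peak in a gene or within 50 kb either side was taken, at the gene positions of RefSeq on GRCm38.p6. The data came from CUT&RUN, in which an antibody directs a nuclease to its target on chromatin and the freed DNA fragments are sequenced. It was done in MIN6 cells, an insulin-secreting line derived from a mouse insulinoma, which is a tumour model of the beta cell and not islet tissue. No sample carried a treatment or a genetic change. The 6 libraries, each from 500000 cells made permeable with 0.01% digitonin, made up 3 groups with 2 replicates each. One group received an antibody against the cells' own MafA, another received H3K4me3 antibody (the positive control), and the last received IgG (the negative control). Peak lists of the MafA and H3K4me3 libraries were used, 4 in all, and IgG was not analysed here. Nothing in the labels says that replicates came from separate cultures, so their spread may be technical. Peak lists hold no RNA, and no receptor's expression was measured.

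MafA is a basic leucine zipper factor of mature beta cells that drives insulin transcription. H3K4me3 is laid down around the starts of active and poised genes. Receptors of the beta cell act through the G protein they couple to. Gs raises cyclic AMP and enhances glucose-stimulated secretion, Gq releases calcium through phospholipase C and also enhances it, and Gi lowers cyclic AMP and brakes it.

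Sequence around gene starts is shown for the members whose start had the highest H3K4me3 fold enrichment or a MafA region within 1 kb. Each run covers 250 bases before to 50 bases after a RefSeq start (GRCm38.p6), written 5′ to 3′ on the gene's strand. Capitals mark matches to the MAF motif TGCTGA, a part of the MAF recognition element, or TCAGCA where it lies on the other strand.
Adra2a, plus strand, chr19:54045009-54045308: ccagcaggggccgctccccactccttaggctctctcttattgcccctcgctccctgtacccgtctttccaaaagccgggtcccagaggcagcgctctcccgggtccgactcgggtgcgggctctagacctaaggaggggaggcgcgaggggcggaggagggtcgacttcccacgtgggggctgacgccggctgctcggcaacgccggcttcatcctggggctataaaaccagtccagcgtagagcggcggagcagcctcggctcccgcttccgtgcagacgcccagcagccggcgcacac
Chrm3, minus strand, chr13:10360754-10361053: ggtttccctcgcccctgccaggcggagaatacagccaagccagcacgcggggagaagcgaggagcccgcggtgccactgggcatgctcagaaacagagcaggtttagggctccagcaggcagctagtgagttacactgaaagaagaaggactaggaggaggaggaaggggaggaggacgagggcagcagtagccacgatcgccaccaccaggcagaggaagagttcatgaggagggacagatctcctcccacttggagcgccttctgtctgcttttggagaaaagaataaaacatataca
Ffar1, minus strand, chr7:30861421-30861720: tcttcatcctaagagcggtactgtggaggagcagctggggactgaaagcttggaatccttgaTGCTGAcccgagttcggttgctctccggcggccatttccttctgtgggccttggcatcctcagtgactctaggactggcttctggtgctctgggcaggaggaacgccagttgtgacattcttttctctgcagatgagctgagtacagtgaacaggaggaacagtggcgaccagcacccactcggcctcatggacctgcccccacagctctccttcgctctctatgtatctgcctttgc
Glp1r, plus strand, chr17:30901617-30901916: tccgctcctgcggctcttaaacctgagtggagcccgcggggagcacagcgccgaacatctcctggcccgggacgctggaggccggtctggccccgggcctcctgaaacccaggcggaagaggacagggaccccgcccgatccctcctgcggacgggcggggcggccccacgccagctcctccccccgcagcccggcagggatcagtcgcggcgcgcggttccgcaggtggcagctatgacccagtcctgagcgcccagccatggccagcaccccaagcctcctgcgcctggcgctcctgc
The window of Adra2a lay within a MafA region and that of Chrm3 was overlapped by one, through a peak of MafA replicate 1 alone, whereas those of Ffar1 and Glp1r lay under H3K4me3 without MafA. Only the Ffar1 window held the MAF motif, beginning at base 63. The motif occurred in 19.5% of all 32851 promoter windows of this length on either strand. Of the 10 members, 8 had promoter windows, 9 in all. The motif lay in 2 of the 8: Ffar1, and Sstr3 at base 250 of the window of 1 of its 2 starts. A whole MAF element is the motif followed by its reverse complement 1 or 2 bases on. None of the 9 held it (0.0122% of all windows) or the AP-1 site TGACTCA (5.20%), on either strand. GC content was 73.7% at Glp1r, 68.7% at Adra2a, 57.3% at Chrm3 and 56.3% at Ffar1, against a median of 52.7%. A match is a description of letters, and a missing match says nothing about binding.

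Each library's list had been called on its own, and fold enrichment and q-values are the authors' values at a peak's summit. The lists held 33013 and 42747 peaks in MafA replicates 1 and 2 and 16020 and 16904 peaks in H3K4me3 replicates 1 and 2. The median number of fragments at a summit was 25.0 and 46.0 for MafA and 758 and 263 for H3K4me3, recovered from the deposited values. A region was the union of peaks of both replicates that overlapped by at least 1 bp. Over the genome there were 25894 MafA and 15573 H3K4me3 regions. Known beta cell genes were looked at: MafA regions lay within 10 kb of Ins1, Ins2 and Pdx1, with fold enrichment of up to 36.7, 17.8 and 21.6 (mean of 2 replicates), while the Ins1 start had no H3K4me3 region. At Mafa itself it reached only 5.15 within 10 kb, and 27.6 within 50 kb. A MafA region lay within 10 kb of 44.0% of protein-coding genes, and genes of other cell types were not looked at, so these values do not identify the cell type.

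All 10 receptors had a MafA region in the gene or within 50 kb, where 66.1% of protein-coding genes had one. Within 10 kb, 9 of 10 had one against 44.0% of genes, Gpr119 being the exception. The members were chosen with earlier results of these data known, so these shares are descriptions and were not tested. The windows held 42 MafA regions, from 2 at Gpr119 and Casr to 8 at Chrm3. Their mean fold enrichment ran from 2.32 to 25.6 with a median of 5.35, against 5.75 over all MafA regions. Of the 42, 17 lay in or over a member and 25 outside it. Another gene was nearer for 19, so that many regions cannot be assigned to the receptor by distance. The strongest region was nearest to the receptor itself at 4 of 10 members: Chrm3, Casr, Adra2a and Galr1.

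**Figure D1:**
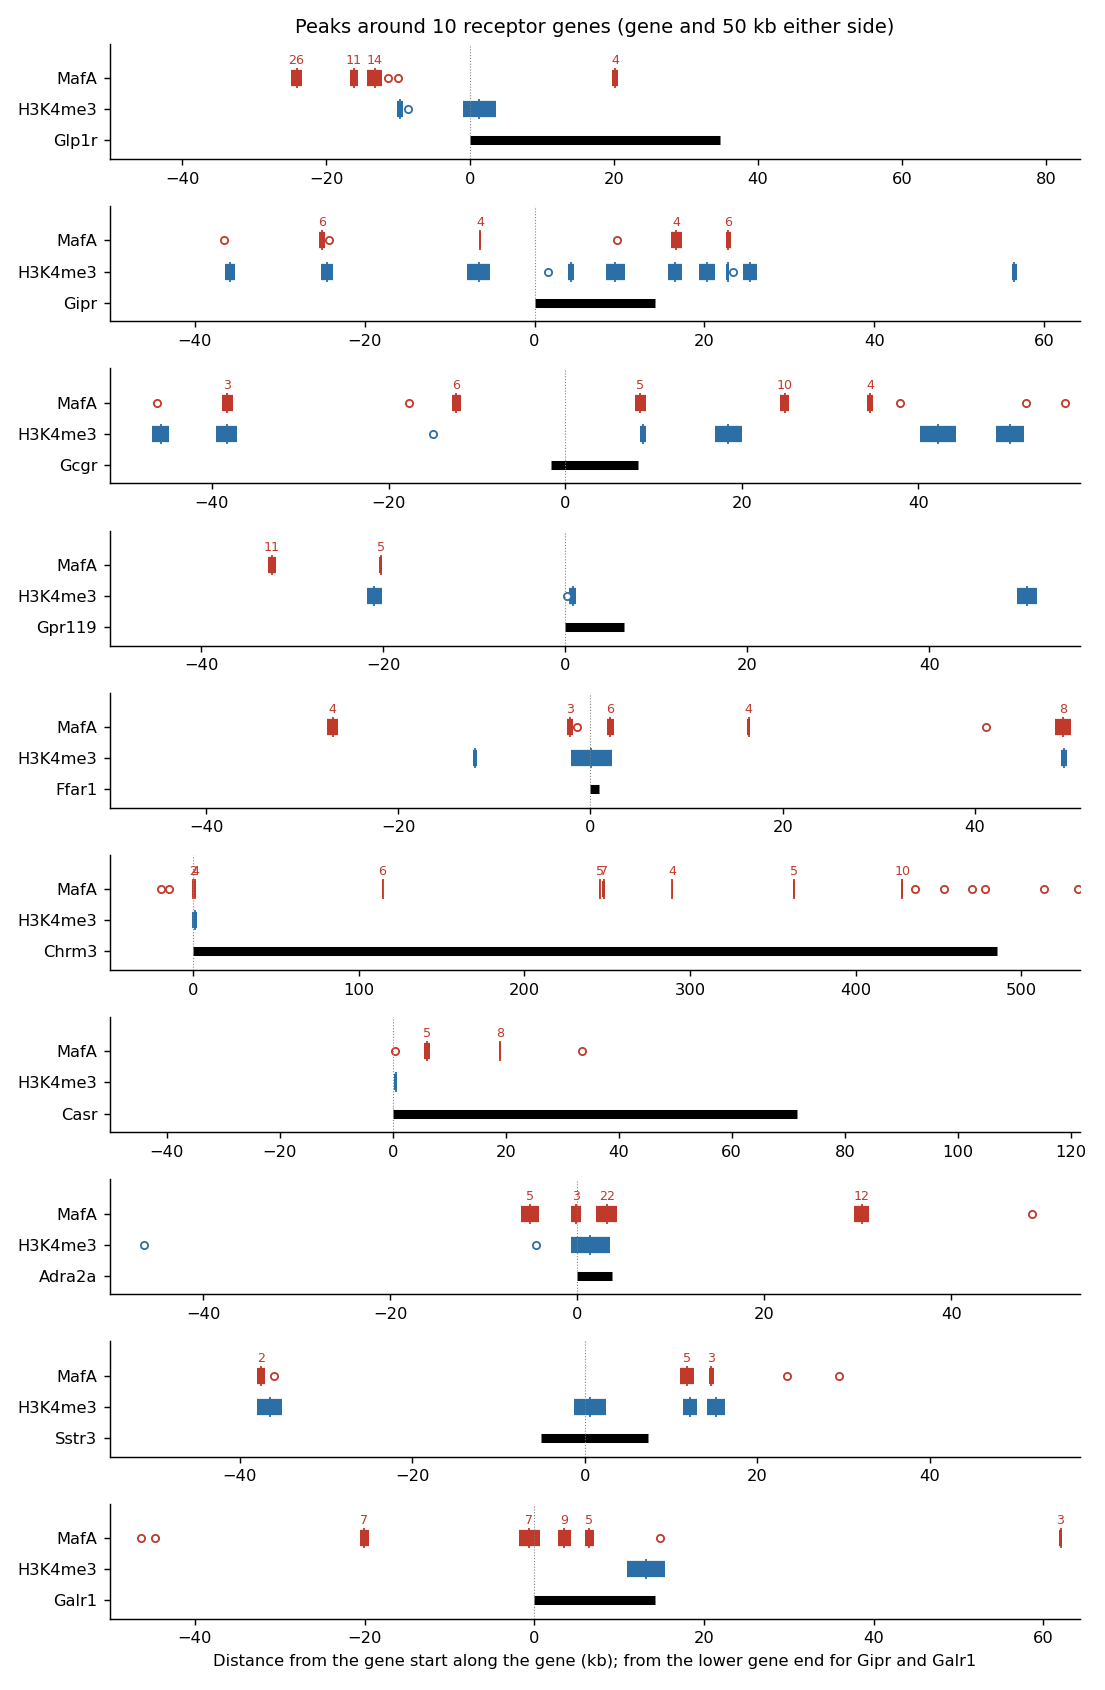
Peaks around each receptor gene. The x axis is the distance from the gene start in kb, with a scale of its own in each panel, and runs along the gene (for Gipr and Galr1 from the lower gene end); black bars are genes, red and blue bars are MafA and H3K4me3 regions found in both replicates with the MafA mean fold enrichment above, and open circles are peaks of 1 replicate. The 2 MafA regions of highest fold enrichment lie upstream of Glp1r (25.6) and at the end of Adra2a (21.8).

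Glp1r encodes the receptor for the incretin GLP-1 and couples to Gs. By fold enrichment it had the strongest MafA region of the 10, on chromosome 17 from 30877071 to 30878485. That region lay upstream of the gene, 23.4 kb from its start. Fold enrichment there was 25.9 in replicate 1 and 25.4 in replicate 2, at the 99.1th percentile of MafA regions. Its 68 and 117 fragments at the summit were at the 79.8th percentile, beside a modelled background of 1.66 and 2.48. This region was 1.31 kb from the end of Dnah8 and thus nearer to that gene. A region at 30887598 to 30889648 had 17.2 and 10.7, the replicates differing by more than 1.5 times. Another at 30885145 to 30886322 had 10.6 and 12.3. They held 97 and 171 fragments and 69 and 180 fragments, more than the first region in both replicates. These 3 regions formed a cluster between the genes, with the nearest 12.2 kb from the Glp1r start and no H3K4me3 region under any of them. Inside Glp1r there was a single region, at 30921563 to 30922422, with 4.42 and 4.46 and only 13 and 23 fragments. The value given for Glp1r therefore rests on the window: with 10 kb either side it was 4.44 ± 0.0250 (SD, n = 2) in place of 25.6 ± 0.351. The Glp1r start lay in an H3K4me3 region with 26.7 and 23.5, and no MafA peak of either replicate overlapped it.

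Gipr encodes the receptor for the other incretin, GIP, and also couples to Gs. Its 4 MafA regions all lay outside the gene and all overlapped an H3K4me3 region. The strongest, on chromosome 7 from 19130648 to 19131421, had 5.59 and 6.92 and lay inside Fbxo46. The region nearest to Gipr, at 19172155 to 19173388 and 1.91 kb from the gene's higher end, had 3.82 and 5.07. The window is dense in genes, with 6 others, and held 10 H3K4me3 regions. Of these, 2 lay in Gipr, at 19159984 to 19160710 (10.0 and 10.1) and at 19164467 to 19166661 (14.2 and 14.4), where MafA replicate 2 alone had a peak of 2.66. The gene has no start in the promoter table, and neither of its ends had an H3K4me3 region within 1 kb.

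Gcgr encodes the glucagon receptor. It had 5 MafA regions, and the strongest, on chromosome 11 from 120555025 to 120556129, had 11.2 and 9.80 and was nearest to Ppp1r27. The region over Gcgr itself lay across the end of the gene, at 120538648 to 120539853, with 6.23 and 4.47, and overlapped an H3K4me3 region of 4.32 and 5.34. Upstream, a region at 120517906 to 120518925, 11.8 kb from the start, had 5.59 in both replicates. No H3K4me3 region lay within 1 kb of the Gcgr start, while the 7 other genes in the window each had or shared one, the strongest with 34.8 and 26.8.

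Gpr119, a receptor for lipid amides on the X chromosome, was the member with the least signal near it. Both MafA regions lay at Rbmx2, 20.1 and 31.7 kb from the Gpr119 start. The stronger, from 48706213 to 48707160 inside Rbmx2, had 7.41 in replicate 1 and 14.4 in replicate 2, with 22 and 65 fragments. That was the widest gap between replicates among the 42 regions, at 1.95 times. The H3K4me3 region near the start was weak, with 3.52 and 3.99 on 40 and 17 fragments, and it was lost when a −log10 q of at least 5 was required.

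Among the Gq-coupled members, Ffar1 encodes the receptor for long-chain fatty acids formerly called Gpr40. Its annotated start lay in an H3K4me3 region 4332 bp wide with 27.5 and 22.6, and a MafA region sat at each edge of it. The region past the gene's end, on chromosome 7 from 30859000 to 30859783, had 6.22 and 6.53, and its summits were 6 bp apart. The region upstream of the start, at 30863305 to 30863934, had 3.19 and 3.28 and was nearer to Cd22. The strongest region of the window, at 30811454 to 30813154 with 6.45 and 9.01, was 47.4 kb from Ffar1 and nearest to Ffar2, another fatty acid receptor. None of the 5 regions lay in the Ffar1 gene as annotated, which is only 903 bp long. Its annotated start falls on the letters atg, the form of a translation start. Where transcription begins was not established, so distances from this start may not be distances from the promoter.

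Chrm3 encodes the muscarinic M3 receptor, which carries the cholinergic stimulus to the beta cell. It is the longest member at 486 kb, no other protein-coding gene lies in its window, and all 8 MafA regions fell inside or over it. Per 100 kb of window this was 1.37 regions, against 0.925 for the median gene and 4.96 at Ffar1. The strongest, on chromosome 13 from 9931862 to 9933323, had 9.80 and 11.2 and lay 427 kb into the gene. It was followed by 10111894 to 10113890 with 6.43 and 7.56, and by 10246027 to 10246798 with 7.38 and 5.33. At the start, MafA regions of low fold enrichment lay at 10358824 to 10360130 (4.22 and 3.22, summits 1033 bp apart) and at 10360760 to 10361385 (2.23 and 2.57), both over an H3K4me3 region of 18.5 and 17.4. MafA replicate 2 had 8 further peaks in the window with no match in replicate 1, at 2.81 to 5.87.

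Casr, the calcium-sensing receptor, couples to Gq and also to Gi. It had 2 MafA regions, both inside the gene: on chromosome 16 from 36543032 to 36543346, with 8.72 and 6.35, and from 36555581 to 36556558, with 5.49 and 4.17. Both were higher in replicate 1, against the general direction, since 30 of the 42 regions were higher in replicate 2. Near the start, an H3K4me3 region of only 651 bp had 8.61 and 10.8, and MafA replicate 2 alone had a peak of 3.76 with 26 fragments there.

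Of the Gi-coupled members, Adra2a encodes the alpha-2A adrenergic receptor, through which noradrenaline suppresses insulin release. Its MafA region on chromosome 19 from 54047268 to 54049551 spanned the end of the gene, with 21.9 and 21.6 and with 359 and 810 fragments, the most of any region at the 10 members. It lay at the 98.2th percentile of MafA regions by fold enrichment and at the 99.9th by fragments. The replicates' summits were 27 bp apart. This was the strongest region in or over any of the receptors, and it partly overlapped the H3K4me3 region that covered most of the gene (22.5 and 19.9). Over the start, a separate MafA region at 54044534 to 54045622 had 3.06 and 3.62 although it held 120 and 217 fragments, the modelled background there being 38.6 and 44.0. Downstream, 25.9 kb past the gene, a region at 54074834 to 54076507 without H3K4me3 had 9.91 and 13.6, and upstream one at 54039219 to 54041133 had 4.54 and 5.88. All 4 regions had Adra2a as their nearest gene.

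Sstr3 encodes a somatostatin receptor found on primary cilia of beta cells. By fold enrichment it had the weakest MafA signal, with 3 regions outside the gene. The strongest, on chromosome 15 from 78531643 to 78533328, had 5.27 and 4.78 and lay in or over C1qtnf6. Its 82 and 178 fragments were at the 89.2th percentile of MafA regions, beside a modelled background of 14.7 and 27.0. The others had 2.25 and 2.84, and 2.44 and 2.2, and all 3 overlapped H3K4me3 regions. Of the 2 annotated starts, the one at 78544345 lay in an H3K4me3 region of 15.6 and 13 free of MafA peaks, and the one at 78541406 lay outside it.

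Galr1, on chromosome 18, encodes a receptor for the neuropeptide galanin, which inhibits secretion. A row of MafA regions ran over the lower end of the gene and into it: 82390656 to 82393168 with 5.35 and 9.38, 82395248 to 82396788 with 7.86 and 9.97, and 82398426 to 82399579 with 4.37 and 6.47. None overlapped H3K4me3, which covered the opposite end of the gene from 82403405 to 82407962 with 16.6 and 15.1. All 5 regions of Galr1 were higher in MafA replicate 2, and at the end marked by H3K4me3 only that replicate had a peak, of 1.78.

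**Figure D2:**
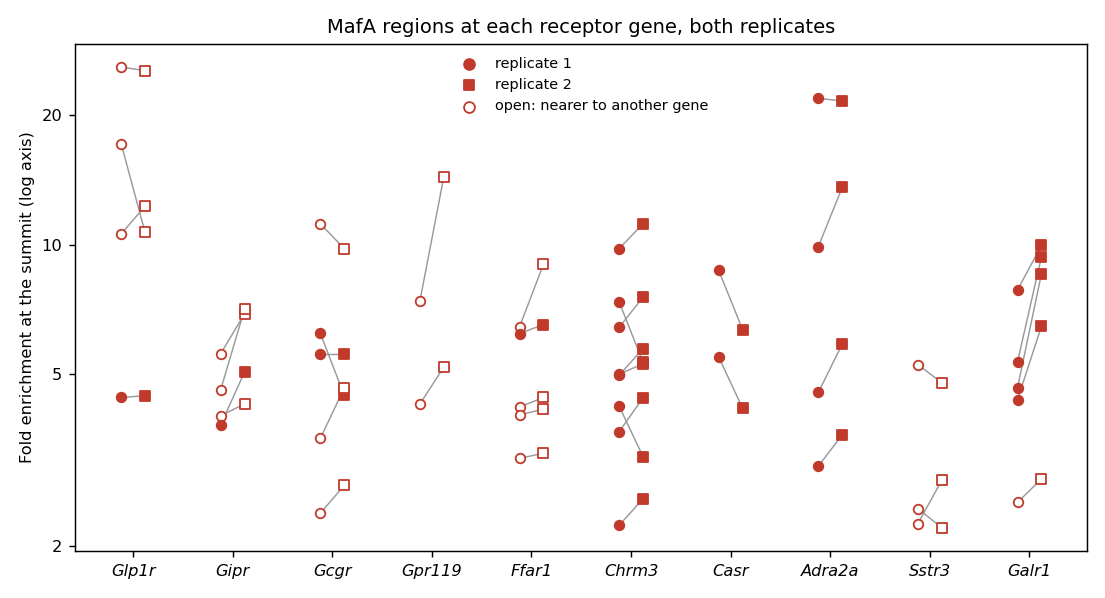
Fold enrichment (log axis) of every MafA region found in both replicates at each receptor gene, with circles for replicate 1, squares for replicate 2 and a line joining the pair. Open symbols are regions nearer to another gene; at Glp1r the 3 high regions are open, whereas at Adra2a all 4 are filled.

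Ordered by their strongest MafA region, the members ran Glp1r (25.6 ± 0.351, SD, n = 2 here and below), Adra2a (21.8 ± 0.189), Gpr119 (10.9 ± 4.97), Gcgr (10.5 ± 0.960), Chrm3 (10.5 ± 1.02), Galr1 (8.92 ± 1.5), Ffar1 (7.73 ± 1.81), Casr (7.54 ± 1.68), Gipr (6.25 ± 0.937) and Sstr3 (5.03 ± 0.348). Replicate values of Glp1r, of Adra2a and of Sstr3 did not overlap those of their neighbours in this order, and from Gpr119 down to Gipr each pair of neighbours overlapped. The order depended on the window: within 10 kb Glp1r fell to 4.44 and Gcgr to 5.35 and Gpr119 had no region, while within 100 kb Chrm3 reached 18.9 and Ffar1 12.5. At 2 of 10 the strongest region was at or above the 90th percentile, Glp1r and Adra2a, against 13.7% of genes. In the 2 lists described below it was 28.9% of 38 other receptors and 24.3% of 37 G proteins and effectors. By coupling, the Gs members had 15 regions with a median of 5.59, the Gq members 15 with 5.15 and the Gi members 12 with 5.31. The regions had the receptor as their nearest gene in 4 of 15, 11 of 15 and 8 of 12 cases. By fold enrichment, stimulating and inhibiting receptors were thus both among the strongest and the weakest.

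An H3K4me3 region lay in the gene or within 50 kb at all 10 members, against 75.3% of genes, and within 1 kb of the start of 8 of 10 members, against 57.0% of genes; for Gipr and Galr1 either gene end was counted, as was done for every gene without a start in the table. The count was 7 without Gpr119 at a −log10 q of at least 5 or with 50% reciprocal overlap of replicates. The order by mean fold enrichment was Glp1r (25.1 ± 2.24), Ffar1 (25.0 ± 3.45), Adra2a (21.2 ± 1.82), Chrm3 (17.9 ± 0.778), Galr1 (15.8 ± 1.06), Sstr3 (14.3 ± 1.87), Casr (9.73 ± 1.59) and Gpr119 (3.75 ± 0.335). Replicates overlapped between Glp1r and Ffar1 and between Galr1 and Sstr3, and not between the other neighbours. Of the 8 regions, 6 were at least 3 kb wide, up to 4616 bp at Glp1r, against 13.4% of all H3K4me3 regions and 16.6% of those within 1 kb of a gene start. The 3 kb cut was not planned and lies just below the narrowest of the 6, Chrm3 at 3076 bp, so these shares are a description. Casr and Gpr119 had narrow regions of 651 and 831 bp. A MafA region lay within 1 kb of the start of 3 of 10 members, Adra2a, Chrm3 and Galr1, against 19.8% of genes. At Galr1 that was the end without H3K4me3, and with the 8 members of known start alone the counts were 7 for H3K4me3 and 2 for MafA. The shares of all genes were not recomputed for genes with a known start, so these 2 counts have no like share beside them. Only Adra2a and Chrm3 therefore had both at 1 start. No MafA region lay within 12.2 kb of the Glp1r start.

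**Figure D3:**
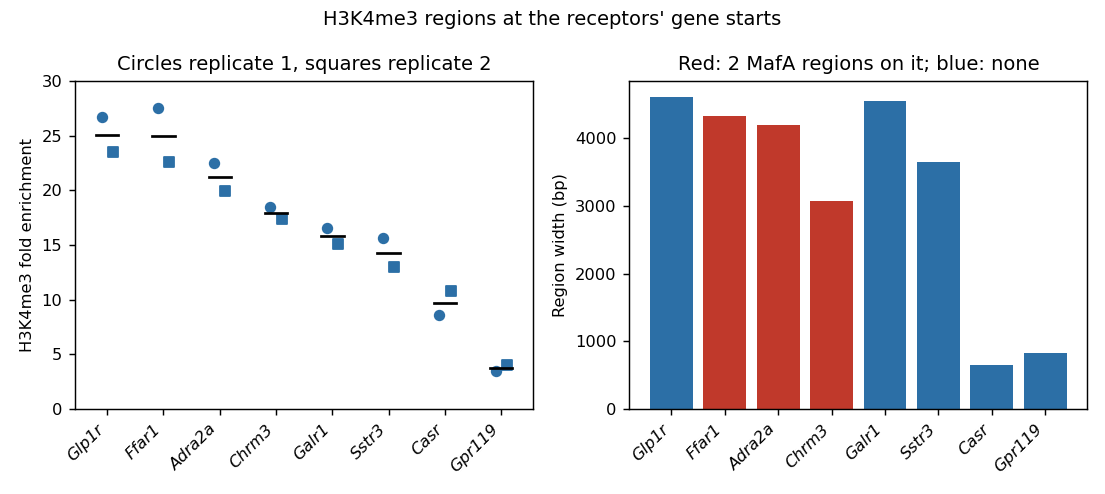
H3K4me3 regions at the gene starts of 8 receptors (either gene end for Galr1). Left, fold enrichment in replicate 1 (circles) and replicate 2 (squares) with the mean as a bar; right, region width in bp, red where 2 MafA regions overlapped the region and blue where none did. The regions of Casr (651 bp) and Gpr119 (831 bp) are the narrow ones, and the other 6 are at least 3 kb wide.

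H3K4me3 lay under 17 of the 42 MafA regions (40.5%, 95% Wilson interval 27.0 to 55.5%, counting error only), against 23.5% of all MafA regions. Conversely 14 of 32 H3K4me3 regions in the windows overlapped a MafA region (43.8%, 28.2 to 60.7%), against 37.4% of all. The 17 came from 7 members, with all regions of Gipr and Sstr3 among them and none at Glp1r, Casr or Galr1. Their median fold enrichment was 4.22 and 4.47 in replicates 1 and 2, and that of the 25 others was 5.49 and 6.35. Fragments at the summit went the other way, with medians of 46.0 and 98.0 against 31.0 and 65.0, beside a modelled background of 14.0 and 16.2 against 3.51 and 5.22. With 50% reciprocal overlap required both of replicates and of the targets, 3 of 32 MafA regions overlapped H3K4me3 (9.38%), against 7.91% of all MafA regions under the same rule. Required of replicates alone it gave 37.5% against 21.8%, and of the targets alone 11.9% against 8.52%. A region less than 50% as wide as the other cannot pass the rule between targets, even when wholly inside it. Median widths were 918 bp for all MafA and 1837 bp for all H3K4me3 regions, so width limits these shares. Among the 16020 strongest peaks of each list, taken by fold enrichment, the share was 20% against 13.1%. That cut left H3K4me3 replicate 1 whole and fell mainly on the MafA lists, where regions over H3K4me3 had the lower median fold enrichment.

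Wide H3K4me3 regions were then looked at singly, in a count chosen after its values were seen. Those at the starts of Ffar1, Adra2a and Chrm3 each carried 2 separate MafA regions, against 1.75% of all H3K4me3 regions, and the other 5 marked starts carried none. Of the 9 H3K4me3 regions at least 3 kb wide in the windows, the same 3 overlapped MafA at all, against 52.9% of wide regions with any MafA region and 8.82% with 2 or more. At Ffar1 and Adra2a the MafA regions lay at the edges of the H3K4me3 region, and at Chrm3 both lay within it. Wide regions without MafA included those of Glp1r (4616 bp), Galr1 (4558 bp) and Sstr3 (3644 bp). The count was 2, without Chrm3, at a −log10 q of at least 5 or with 50% reciprocal overlap of replicates, and 0 among the 16020 strongest peaks of each list.

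The targets were compared over libraries. Within the 10 windows the median peak width was 566 and 707 bp in the MafA libraries and 1685 and 1678 bp in the H3K4me3 libraries, a difference of -1045 bp. The windows held 51 and 64 MafA peaks and 35 and 37 H3K4me3 peaks, a difference of 21.5. Both differences exceeded the spread between replicates, and the exact permutation test gave p = 0.333 for each (two-sided), the smallest that 2 libraries against 2 allow. The difference in number turned to -14.5 when the 16020 strongest peaks of every list were used. That cut left H3K4me3 replicate 1 whole and removed peaks mainly from the MafA lists.

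A match in the other replicate was found for 44 of 51 peaks of MafA replicate 1 (86.3%, Wilson interval 74.3 to 93.2%) and 42 of 64 of replicate 2 (65.6%, 53.4 to 76.1%), against 81.2% and 60.8% of all peaks. For H3K4me3 it was found for 33 of 35 (94.3%, 81.4 to 98.4%) and 32 of 37 (86.5%, 72.0 to 94.1%), against 97.7% and 93.1%. The genome-wide shares all lay within the intervals at the receptors. These intervals hold counting error only and take peaks of the same window as independent, so this is no test of likeness. Fold enrichment of the 2 MafA replicates differed by over 1.5 times at 5 of the 42 regions, and their summits were within 300 bp at 28.

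The signalling partners of these receptors were described from 2 further lists. Of 38 other receptors of hormones, transmitters and nutrients, 32 had a MafA region within 50 kb (84.2%, against 66.1% of genes), 21 within 10 kb and 7 at a start. Of 37 G proteins and effectors, 30 had one within 50 kb (81.1%), 26 within 10 kb and 11 at a start, and 36 had H3K4me3 at a start. H3K4me3 lay at a start of 23 of the other receptors (60.5%), near the 57.0% of all genes, and their share with MafA at a start, 18.4%, was near the 19.8% of all genes. Ffar2 and Ffar3, in the receptor list, share peaks with the Ffar1 window. The median number of regions per gene was 4 for the 10 members, 2.5 for the other receptors, 3 for the effectors and 1 for all genes. Among genes with a region, the median of the strongest was 9.70, 9.17, 9.85 and 7.16 in the same order. The strongest among the other receptors were near Adora1, an adenosine receptor (24.7 and 30.2, nearest to Mybph), Oxtr, the oxytocin receptor (26 and 28.1), Kiss1r, the kisspeptin receptor (21.6 and 26.6, nearest to Arid3a), Crhr1, a receptor for corticotropin-releasing hormone (17.0 and 19.3), and Sstr5, a somatostatin receptor (13.1 and 20.9, nearest to Tekt4). Among the effectors they were in or near Prkca, a protein kinase C (32.8 and 35.7), Pde8b, a cyclic AMP phosphodiesterase (16.9 and 26.6), Grk5, a receptor kinase (18.8 and 22.9), Prkar1a, a regulatory subunit of protein kinase A (13.4 and 22.2, nearest to Fam20a), and Gnai3, an inhibitory G protein subunit (15.0 and 13). Those of Pde8b, Grk5 and Gnai3 lay inside the gene. No test was made over these lists, and genes differ in length and in the number of neighbours.

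**Figure D4:**
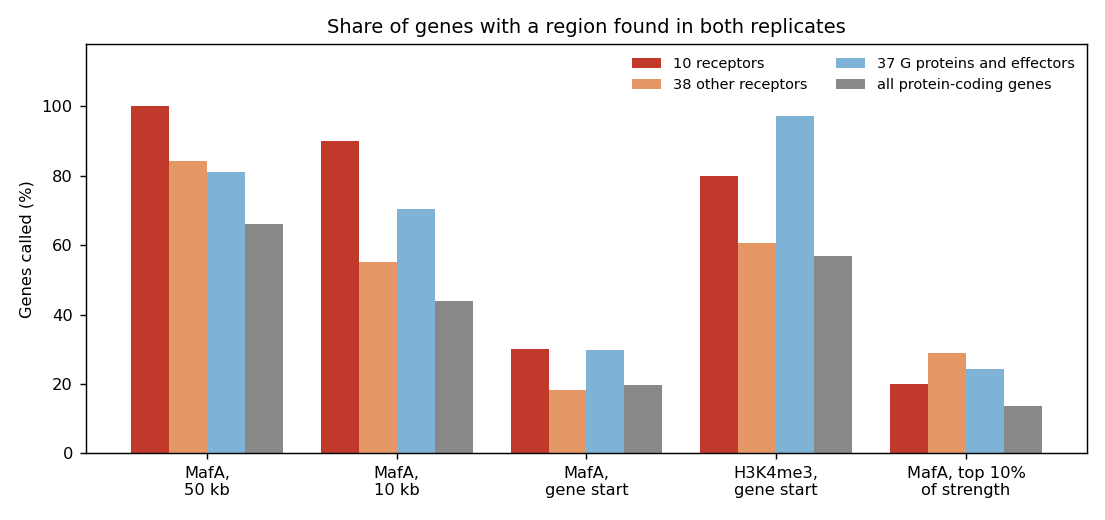
Share of genes (y axis, percent) with a region found in both replicates, for the 10 receptors, 38 other receptors, 37 G proteins and effectors and all protein-coding genes. All 10 receptors have MafA within 50 kb and 9 have it within 10 kb, beside 66.1% and 44.0% of all genes. The receptors and lists were chosen with earlier results of these data known, so the shares are descriptions. At a gene start 3 have it against 19.8%, among them Galr1, for which either gene end was counted. With the 8 members of known start alone the count is 2, for which no like share of all genes was computed.

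Likeness to the other receptors was measured as the Euclidean distance between the log2 highest fold enrichments in the 4 libraries. The closest pair was Ffar1 and Ffar3 at 0.00, because their windows hold the same strongest peaks. Next came Glp1r and Kiss1r at 0.28, and then Chrm3 and Chrm5 at 0.32. In its window Chrm5 had at most 10.6 and 11.7 for MafA and 17.6 and 14.3 for H3K4me3. No MafA or H3K4me3 region was called at a start of Chrm5, whereas Chrm3 had both. The 4 values share the libraries and their depth, and the distance is a description.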

How the data were processed

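CUT&RUN libraries of MIN6 cells were read as 150 bp pairs, per the labels. The deposited files are narrow peak lists, 1 list per library, called by the authors with MACS2, with GRCm38 and mm10 as builds, per the submitters' processing notes. The MACS2 version, aligner and control are not given in the sources used here. The deposited fold enrichment is a ratio of summit pileup to modelled background. The deposited −log10 p and −log10 q belong to the summit, and the lowest −log10 q was 2.00. The deposited score was not used.

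Fragments at summits were solved from fold enrichment and p (pseudocount 1, scaling factors 0.415 and 0.997 for H3K4me3 and 1.00 and 0.746 for MafA, relative tolerance 0.0001) for at least 99.9% of peaks. Routines were tested on simulated data. Gene positions and starts came from RefSeq GRCm38.p6; starts were given for 17492 of 21900 genes, and either gene end stood in for the others. Positions are 1-based. A gene was called when a region found in both replicates lay in the window, and percentiles rank mean fold enrichment among all regions. All members were named, with up to 3 MafA regions each by fold enrichment and those at the start. From each list the 5 genes with the highest value were named, and the 3 closest pairs. Members and lists were chosen with earlier results of these data known. Results were recomputed with peaks of −log10 q 5 or more, with the same number of peaks from each list, 50% reciprocal overlap, windows of 10 and 100 kb, start windows of 500 bp and 5 kb, left-out libraries and a replicate block. The same number was 16020, taken by highest fold enrichment. Scripts ran in Python 3.11.15 with pandas 2.3.3, numpy 2.4.6, matplotlib 3.10.9 and scipy 1.17.1. Sequence of the MafA regions themselves was not used here.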

Additional observations from a re-analysis of the deposited data

How the results depend on the processing

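All 10 receptors kept a MafA region in 5 of 7 alternatives; Sstr3 lost it among the 16020 strongest peaks of each list and Gpr119 within 10 kb. The 42 MafA regions became 15 for the strongest peaks, 25 within 10 kb, 23 when only regions nearest to the receptor were counted, and 51 to 64 when a MafA replicate was left out, the higher number without replicate 1. The number of receptors with MafA at the start, 3, became 1 for the strongest peaks and 5 with a start window of 5 kb. The share of MafA regions over H3K4me3 (40.5%) became 20% for the strongest peaks, 9.38% with 50% reciprocal overlap of both replicates and targets, and 11.9% with it of targets alone. The difference in peak number reversed to -14.5 for the strongest peaks. The median over members of the highest MafA fold enrichment, 9.70, was 6.37 within 10 kb, 11.4 within 100 kb and between 8.29 and 9.89 when a MafA replicate was left out. In fragments at the summit it was 96.5. A narrower window can only keep or lower a count of regions, and a 50% rule between targets can only keep or lower the share. Equal numbers by fold enrichment cut mainly the MafA lists. How far these limits moved the values, and why the others moved, was not tested. Of 70 values for single receptors, 2 were lost and 6 moved by more than the SD, all 6 with a window of 10 or 100 kb. With 2 replicates each value lies within the SD of their mean, so leaving a replicate out cannot move the same region's value. Filters on peak strength also tend to keep a receptor's strongest region. The 6 of 70 is therefore no measure of stability. A replicate block left the differences at -1045 bp and 21.5 peaks, with an exact permutation p of 0.5, the smallest possible; no label ties libraries of equal number together. Starts with 2 MafA regions numbered 3, then 2 at a −log10 q of at least 5 and with 50% reciprocal overlap, and 0 for the strongest peaks. H3K4me3 starts, 8 in number, ranged from 7 to 9. The count of starts with 2 MafA regions, the overlap rule for targets alone and the counts for receptors with a known start alone were added after seeing the data. The 3 kb cut on H3K4me3 width was not among the planned settings. Depth limits the weakest regions, the lowest of which had 10 and 19 fragments.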
